A study of Mus musculus with 2 samples.

Results

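LIM homeobox genes encode transcription factors that join a pair of LIM zinc-binding domains to a DNA-binding homeodomain. The 6 genes described here are Lmx1b, Lmx1a, Lhx1, Lhx5, Lhx2 and Isl1. Their enrichment peaks were compared between E14 mouse embryonic stem cells transfected with a hairpin against Dnmt3L (shDnmt3L, 1 library) and the same line transfected with a hairpin against GFP (shGFP, 1 library), which serves as the control. Each gene was represented by a fixed stretch of its chromosome on the mouse build mm9, and every peak of either list that touched the stretch was counted as a member. The 6 stretches, called gene intervals below, added up to 930 kb. They held 41 of the 45579 peaks of the shDnmt3L list and 40 of the 55292 peaks of the shGFP list. The genes were picked with the peak lists already known, so the covered length, peak width, overlap and score given below describe the choice and were not tested. With 1 library per group no value has a replicate error, and every difference is one between these libraries.

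The labels leave the captured modification open. Sample names and the design text speak of 5-methylcytosine, while the extraction protocol describes GLIB precipitation (Hydroxymethyl Collector), a glucosylation-based capture of the oxidised form, 5-hydroxymethylcytosine. The peaks are called enrichment peaks for that reason. Dnmt3L has no methyltransferase activity of its own and acts as a partner of the de novo methyltransferases Dnmt3a and Dnmt3b. Its level in these cells was not analysed here, and the labels do not say whether the transfected cells were a clone or a pool.

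As background, LIM homeodomain factors set regional and neuronal identity in the embryo, and the LIM domains bind the cofactor Ldb1, through which several of these factors act in complexes. In pluripotent cells such lineage genes are mostly silent or weakly expressed, and many of their CpG-rich promoters carry Polycomb marks. CpG-rich promoters are as a rule poor in methylated cytosine, and the Tet enzymes convert 5-methylcytosine to 5-hydroxymethylcytosine.

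The CG dinucleotide, the site at which both modifications mostly occur, was more frequent than in most promoters at the 5 genes with a matched sequence. For Lmx1a, where 59.7% of all promoters held fewer, it still lay between the quartiles, 2 and 16. RefSeq sequence of build GRCm38.p6 was matched by symbol for 5 of the 6 genes. Over the 250 bases before the annotated start, the Isl1 promoter held 33 CG, the Lhx1 promoter 26, the 2 Lhx2 promoters 25 and 24, the Lmx1b promoter 19 and the Lmx1a promoter 9. CG reads the same on both strands and cannot overlap itself. The median over 32851 promoters of the same table was 6, and 92.1% of them held at least 1 CG. At least as many CG as in the Isl1 promoter were found in 4.03% of all promoters, and at least as many as in the Lmx1a promoter in 40.3%. The sequences below, each read along the strand of its gene and with every CG in capitals, show this spread. They stand for the gene with the largest covered length in shDnmt3L (Lmx1b, chromosome 2, minus strand), its close relative with the fewest CG (Lmx1a, chromosome 1, plus strand), a gene with 1 broad peak (Lhx1, chromosome 11, minus strand) and the gene with the most CG and the fewest peaks (Isl1, chromosome 13, minus strand).
Lmx1b: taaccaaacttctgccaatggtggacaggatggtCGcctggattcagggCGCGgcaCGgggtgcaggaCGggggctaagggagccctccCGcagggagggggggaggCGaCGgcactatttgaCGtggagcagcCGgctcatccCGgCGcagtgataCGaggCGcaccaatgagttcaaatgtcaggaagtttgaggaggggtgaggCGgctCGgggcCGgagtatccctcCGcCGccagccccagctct
Lmx1a: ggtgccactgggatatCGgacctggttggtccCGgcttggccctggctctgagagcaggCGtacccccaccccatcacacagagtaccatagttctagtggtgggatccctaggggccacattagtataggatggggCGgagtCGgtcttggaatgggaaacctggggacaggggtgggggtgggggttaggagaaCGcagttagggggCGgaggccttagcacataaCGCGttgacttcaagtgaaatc
Lhx1: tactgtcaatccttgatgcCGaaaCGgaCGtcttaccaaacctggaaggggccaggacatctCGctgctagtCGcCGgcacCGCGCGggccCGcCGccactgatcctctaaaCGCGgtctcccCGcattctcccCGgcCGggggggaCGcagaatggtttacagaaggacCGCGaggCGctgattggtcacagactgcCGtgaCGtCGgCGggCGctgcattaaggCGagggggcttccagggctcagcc
Isl1: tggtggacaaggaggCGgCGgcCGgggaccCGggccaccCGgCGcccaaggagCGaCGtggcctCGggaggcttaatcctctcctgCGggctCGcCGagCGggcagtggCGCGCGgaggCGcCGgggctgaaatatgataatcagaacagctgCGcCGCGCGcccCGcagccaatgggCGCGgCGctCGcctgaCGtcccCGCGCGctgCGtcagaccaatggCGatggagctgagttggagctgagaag
The number of CG did not order the genes by peak width, since Isl1 had the most CG and no peak of 5 kb or more. Builds differ between these sequences and the peak lists, so no peak was placed on a promoter.

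Peaks covered more of these intervals in shDnmt3L than in shGFP, and most of the difference came from a few long peaks. The summed covered length was 226 kb in shDnmt3L and 93.0 kb in shGFP, a ratio of 2.43. Of this length, 76.5 kb was covered in both libraries, 149.9 kb in shDnmt3L alone and 16.5 kb in shGFP alone. The number of peaks was nearly equal, with 41 in shDnmt3L (exact 95% Poisson interval 29.4 to 55.6) and 40 in shGFP (28.6 to 54.5). The median width was 3143 bp in shDnmt3L and 2092.5 bp in shGFP, against 2376 bp over the whole shDnmt3L list and 1998 bp over the whole shGFP list. The shDnmt3L peaks of 10 kb or more, called broad here, numbered 5 in these intervals, where shGFP had 0. Broad peaks made up 0.535% of the whole shDnmt3L list and 0.0524% of the shGFP list. There were 10 shDnmt3L peaks and 2 shGFP peaks of at least 5 kb, against 5.18% of the whole shDnmt3L list and 1.34% of the shGFP list. The 5 broad peaks covered 107 kb, part of which also lay under shGFP peaks, and the stretches under them held 97.8 kb of the 133 kb by which shDnmt3L exceeded shGFP. Outside these stretches 119 kb was covered in shDnmt3L and 83.7 kb in shGFP, a ratio of 1.43. Lmx1b contributed the most, and without it the sums were 135 kb in shDnmt3L and 65.6 kb in shGFP, a ratio of 2.06.

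**Figure D1:**
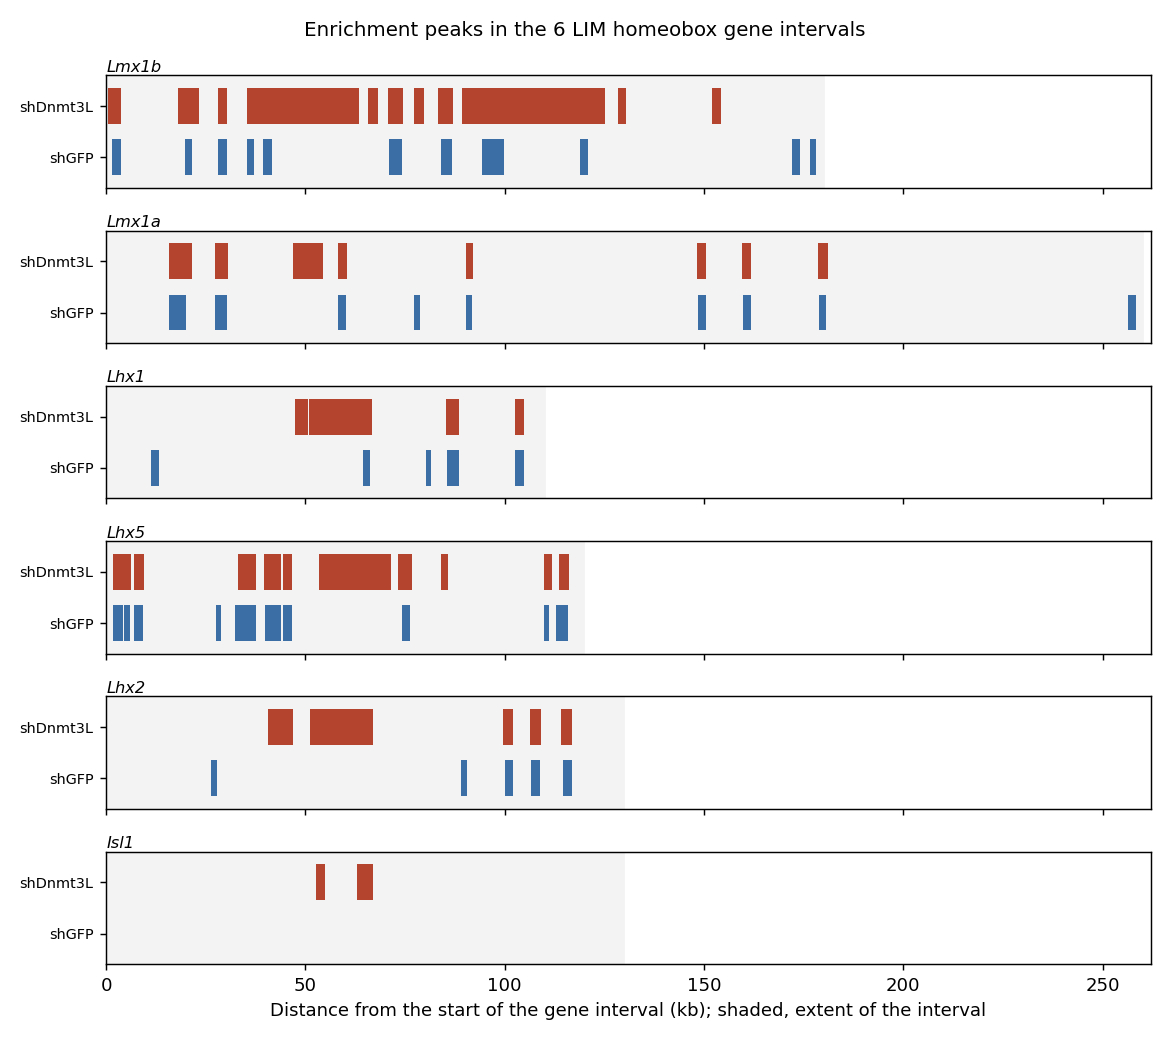
Positions of all peaks in the 6 gene intervals, with distance from the start of the interval in kb on the horizontal axis, shDnmt3L peaks above and shGFP peaks below, and the extent of each interval shaded. Long shDnmt3L peaks stand at Lmx1b, Lhx1, Lhx5 and Lhx2, with 5 in all, while no shGFP peak reached 10 kb. Adjoining peaks can appear as 1 block where their gap is too small to see, for example at Lmx1b in shDnmt3L and at Lhx5 in shGFP.

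To set the genes against the rest of the genome, the chromosomes were divided into windows of 130 kb, and 13045 windows held a peak in either list. In 7.67% of them the covered length in shDnmt3L was at least 2 times that in shGFP, a class that also takes in windows with no shGFP peak. The opposite, at least 2 times more in shGFP, was found in 15.6%. The intervals of Lmx1b, Lhx1, Lhx2 and Isl1 passed the first of these limits, those of Lhx5 and Lmx1a passed neither, and since the genes were chosen on this measure nothing is read from that count. The median log2 ratio over the 5 genes with peaks in both lists was 1.25, and over the 11288 windows with peaks in both it was 0.03. The ratio of Lmx1b was reached or passed by 1.66% of these windows, that of Lhx2 by 1.90%, that of Lhx1 by 3.68%, that of Lhx5 by 7.64% and that of Lmx1a by 16.1%. The gene intervals were between 110 and 260 kb long and so differ in length from most windows. A shDnmt3L peak of 10 kb or more touched 1.82% of the windows and 4 of the 6 gene intervals.

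**Figure D2:**
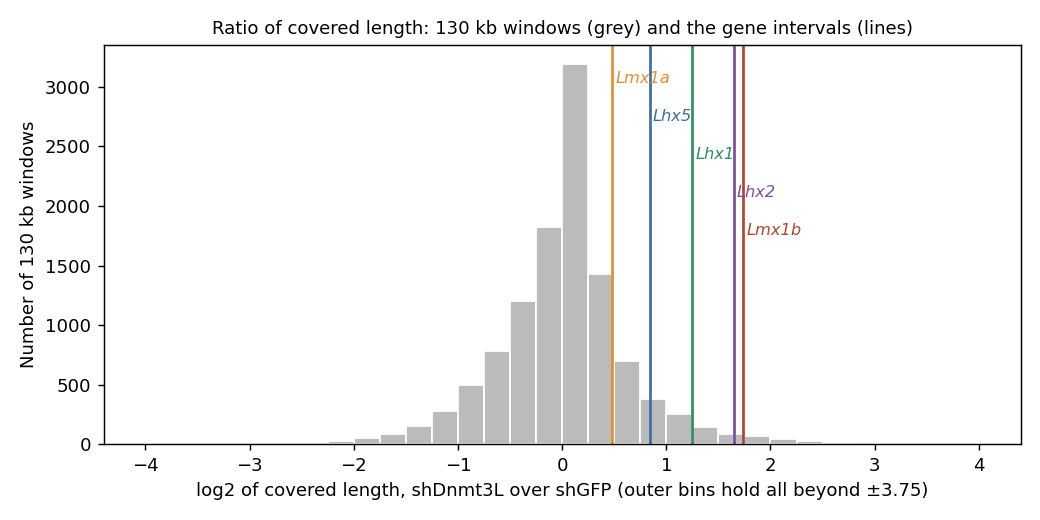
Number of 130 kb windows (vertical axis) by the log2 ratio of covered length, shDnmt3L over shGFP (horizontal axis), with the 5 genes that had peaks in both lists drawn as lines. The windows centre near 0.03, and the genes lie between 0.48 for Lmx1a and 1.74 for Lmx1b.

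Lmx1b specifies the dorsal side of the limb and takes part in the formation of dopaminergic and serotonergic neurons. Its interval on chromosome 2, 33380001 to 33560000, carried the largest covered length of the 6 genes in both libraries, with 91.3 kb in shDnmt3L and 27.3 kb in shGFP, a ratio of 3.34. That was 50.7% of the interval in shDnmt3L and 15.2% in shGFP, where the shorter Lhx5 interval had a larger share, 21.5%. The interval held 12 shDnmt3L peaks (exact 95% Poisson interval 6.20 to 20.96) and 11 shGFP peaks (5.49 to 19.7), so the libraries differed in length and not in number.

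The widest Lmx1b peak of shDnmt3L ran from 33469173 to 33505036, 35.9 kb with a score of 3100. The widest of shGFP lay inside it, from 33474309 to 33479853, with a width of 5545 bp and a score of 635.06. The score is the value that the authors' peak caller gave each peak, and it is used here only for ranks within a list. In its own list the 35.9 kb peak ranked 4 by width, and its score was shared by 19 peaks. Its rank by score was 3, since scores above 3100 also occurred, up to 3204 in this list. The 5545 bp peak was at the 98.3rd percentile of score in the shGFP list. A second shGFP peak of 1904 bp, from 33498925 to 33500828, also lay under the 35.9 kb peak, and together they covered 20.8% of it. The remaining stretch was without a called shGFP peak.

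A second broad shDnmt3L peak at Lmx1b, from 33422096 to 33443543, was 21.4 kb wide with a score of 1380.78. It overlapped no shGFP peak, although the nearest ended 456 bp from its start. Next to it a 6664 bp shDnmt3L peak from 33415380 to 33422043 took in 2 shGFP peaks of 1745 and 2284 bp. In steps of 10 kb along the interval, 5 of 18 steps were covered over at least 9 kb in shDnmt3L and 0 in shGFP. The shDnmt3L length was greater in 15 steps and the shGFP length in 1, the step beginning at 33550001, where shGFP had peaks of 2086 and 1554 bp and shDnmt3L had none.

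Lmx1a, which acts in the roof plate of the neural tube and in midbrain dopaminergic progenitors, differed little by comparison. Its interval on chromosome 1, 169570001 to 169830000, had 27.8 kb under 8 shDnmt3L peaks and 19.9 kb under 9 shGFP peaks, a log2 ratio of 0.48. The widest and highest-scoring shDnmt3L peak, 7517 bp from 169616827 to 169624343 with a score of 621.53, had no shGFP partner, and the nearest shGFP peak was 3727 bp away. It stood at the 97.8th percentile of score in its list. The widest and highest-scoring shGFP peak, from 169585886 to 169590019, measured 4134 bp, scored 364.24 and lay wholly within a shDnmt3L peak of 5674 bp. All 7 one-to-one pairs at Lmx1a were wider in shDnmt3L, by 231 to 1540 bp, as were 81.7% of such pairs over the whole lists. The shGFP peaks without a partner, of 1444 and 1947 bp, scored 54.55 and 51.88, close to the lowest score of their list, 50.01. When only peaks scoring at least 100 were kept, the log2 ratio at Lmx1a was 1.26, against 0.48 with all peaks. With the interval shortened by 25% on both sides it was 0.01, with 8.83 kb in shDnmt3L and 8.79 kb in shGFP. The stretch of equal length before the interval had 45.8 kb in shDnmt3L and 23.8 kb in shGFP, a larger difference than within it.

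Lhx1, a factor of the head organizer that is also needed for kidney formation, had 1 long shDnmt3L peak over a weak control peak. The interval on chromosome 11, 84280001 to 84390000, was covered over 24.7 kb in shDnmt3L (4 peaks) and 10.4 kb in shGFP (5 peaks), a ratio of 2.38. The long peak, from 84330843 to 84346619, was 15.8 kb wide with a score of 1724.19, at the 99.8th percentile of its list. The only shGFP peak it met, from 84344461 to 84346291, was 1831 bp wide with a score of 70.69, at the 29.6th percentile of the shGFP list, and covered 11.6% of it. A further shDnmt3L peak of 3380 bp, from 84327288 to 84330667, lay just before the long one and had no shGFP partner. The other shDnmt3L peaks at Lhx1, of 3303 and 2202 bp, matched shGFP peaks of 3023 and 2170 bp in the same order. The 3023 bp peak, from 84365407 to 84368429, was the widest and, with a score of 94.29, the highest-scoring of shGFP at this gene. Of the shGFP peaks without a partner, the stronger lay from 84360180 to 84361508 with a score of 82.17. Outside the stretch under the broad peak, 8.89 kb was covered in shDnmt3L and 8.54 kb in shGFP. The net difference at Lhx1 thus lay under 1 peak. Elsewhere the 3380 bp shDnmt3L peak and shGFP peaks of 2015 and 1329 bp had no partner, so the covered stretches still differed. In the RefSeq table of GRCm38.p6 the Lhx1 gene is 7.56 kb long, less than the long peak. Its neighbours are Aatf, 4.39 kb away, and Mrm1, 287.5 kb away. No peak was placed on a gene, so it is not known which peaks of the interval lie on Lhx1.

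Lhx5, the closest relative of Lhx1, takes part in the development of the forebrain and hippocampus. The interval on chromosome 5, 120820001 to 120940000, held 10 peaks in each library, covering 46.3 kb in shDnmt3L and 25.8 kb in shGFP, a ratio of 1.79. Its broad shDnmt3L peak, from 120873319 to 120891562, was 18.2 kb wide, scored 1761.99 and had no shGFP partner, the nearest shGFP peak being 2586 bp away. The Lhx5 gene is 9.57 kb long in the RefSeq table, again shorter than the broad peak, and Sdsl lies 16.7 kb away. Here too no peak was placed on a gene. Outside the broad peak the libraries were close in covered length, with 28.0 kb in shDnmt3L and 25.8 kb in shGFP. Of the 10 shGFP peaks 9 were shared, and the exception, from 120847491 to 120848925, scored 50.47.

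Lhx5 also held the only one-to-one pairs of the 6 genes that were narrower in shDnmt3L. One measured 4550 bp in shDnmt3L and 5267 bp in shGFP, the widest shGFP peak at this gene (120852220 to 120857486). The other measured 2587 bp in shDnmt3L and 3184 bp in shGFP, the highest-scoring shGFP peak there (120932808 to 120935991, score 500.86). In both pairs the shDnmt3L peak began inside the shGFP peak and ended beyond it, by 62 and 154 bp. At the start of the interval a shDnmt3L peak of 4670 bp, from 120821663 to 120826332, joined 2 shGFP peaks of 2512 and 1697 bp.

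Lhx2 is required for the eye, the cerebral cortex and the maintenance of hair follicle stem cells. Its interval on chromosome 2, 38150001 to 38280000, had 5 peaks in each library, and they covered 29.9 kb in shDnmt3L and 9.54 kb in shGFP, a ratio of 3.13. The broad shDnmt3L peak, from 38201244 to 38216967, was 15.7 kb wide with a score of 1036.76, at the 99.4th percentile. Close to it lay a shDnmt3L peak of 6250 bp from 38190601 to 38196850 with a score of 468.83. Neither had a shGFP partner, and the nearest shGFP peaks were 21951 and 12868 bp away. Among the broad peaks of the 6 genes this one was the farthest from a control peak.

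The other 3 shDnmt3L peaks of Lhx2 had a shGFP partner, and in the whole shDnmt3L list 12.6% of peaks had none. A narrow peak at 38249992 to 38252037 was the highest-scoring shGFP peak of the gene, with 2046 bp and a score of 510.76. Its shDnmt3L counterpart was 2430 bp wide with a score of 448.81. These scores stood at the 95.5th percentile in shDnmt3L and the 96.99th in shGFP. The widest shGFP peak, 2183 bp from 38264685 to 38266867, matched a shDnmt3L peak of 2863 bp. The shGFP peaks without a partner, of 1478 and 1670 bp, scored 72 and 56.39. The stretches of equal length on either side were almost empty, with 2.21 kb in shDnmt3L and 3.21 kb in shGFP together.

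Isl1, a factor of motor neurons, of the second heart field and of pancreatic islet cells, lay in a region with almost no peaks. The interval on chromosome 13, 117030001 to 117160000, held 2 peaks in shDnmt3L and none was listed in shGFP. Windows with shDnmt3L peaks and no shGFP peak made up 2.55% of all 130 kb windows. The Isl1 peaks were 4177 bp wide with a score of 104.98 (117092854 to 117097030) and 2261 bp wide with a score of 61.54 (117082753 to 117085013). They stood at the 53.3rd and 17.9th percentiles of score, so they were not among the strong peaks of their list. By width they stood at the 90.4th and 39.8th percentiles. Beyond them, the nearest peak on one side was 637 kb away in both libraries. On the other side it was 1062 kb away in both. The covered length was 6.44 kb in shDnmt3L and 0 in shGFP, and no ratio is given because a peak list shows only peaks above the caller's limit.

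**Figure D3:**
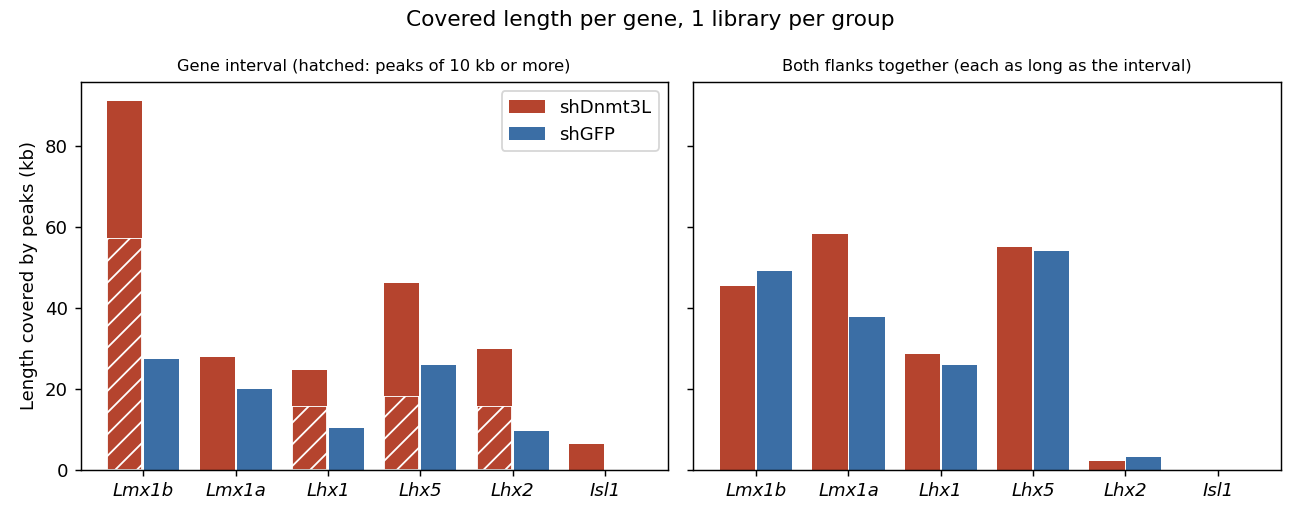
Length covered by peaks (kb) in each gene interval (left) and in its 2 flanking stretches together (right), with shDnmt3L beside shGFP and peaks of 10 kb or more hatched. Within the intervals every gene had more covered length in shDnmt3L, most at Lmx1b (91.3 kb in shDnmt3L, 27.3 kb in shGFP). With both flanks of a gene summed, the libraries differed by less than 4 kb except at Lmx1a.

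In the stretches beside the genes, summed over both sides and all genes, the libraries differed less. For each gene, a stretch as long as the interval was taken on either side. Summed over the 6 genes these flanks had 189.7 kb in shDnmt3L and 170.02 kb in shGFP, a ratio of 1.12, against 2.43 within the intervals. The flanks of Lmx1b had 45.4 kb in shDnmt3L and 49.3 kb in shGFP, those of Lhx1 28.6 kb in shDnmt3L and 25.8 kb in shGFP, and those of Lhx5 55.1 kb in shDnmt3L and 54.0 kb in shGFP. At Lmx1b and Lhx5 these sums join sides that differed in opposite directions. Before the Lhx5 interval 25.7 kb was covered in shDnmt3L and 19.35 kb in shGFP. After it 29.4 kb was covered in shDnmt3L and 34.6 kb in shGFP. At Lmx1a the flanks had 58.4 kb in shDnmt3L and 37.7 kb in shGFP, a ratio of 1.55. Those of Isl1 held no peak in either list. The limits of the intervals were set with the peaks known, and intervals extended by 50 kb on both sides gave a log2 ratio of 1.12 at Lmx1b, against 1.74.

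Most peaks at these genes were called in both libraries, but the shDnmt3L peaks lacked a partner more often than in their whole list. Both the shared and the unshared shDnmt3L peaks included broad ones. Of the 41 shDnmt3L peaks, 28 overlapped a shGFP peak, or 68.3% (Wilson 95% interval 53.02 to 80.4%), and 13 did not. In the whole shDnmt3L list 5724 of 45579 peaks, or 12.6%, had no partner. Of the 40 shGFP peaks, 31 overlapped a shDnmt3L peak, or 77.5% (62.5 to 87.7%), and 9 did not. In the whole shGFP list 14107 of 55292 peaks, or 25.5%, had no partner. The unshared shDnmt3L peaks included 3 of the 5 broad ones, at Lmx1b, Lhx5 and Lhx2. In the whole shDnmt3L list, 104 of the 244 broad peaks had no shGFP partner. The one at Lmx1b lay 456 bp from a shGFP peak. The strongest unshared shGFP peak of the 6 genes was the one at Lhx1 with a score of 82.17. The Poisson and Wilson intervals given here cover counting error only, as though neighbouring peaks were independent.

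Where a peak had exactly 1 partner in the other list, it was usually somewhat wider in shDnmt3L at these genes. Of 25 such pairs, 23 were wider in shDnmt3L, or 92%, and over the whole lists 81.7% of 37952 pairs were. The median difference was 384 bp at the 6 genes and 145 bp over all pairs. Without the Lhx1 pair of 15777 bp in shDnmt3L and 1831 bp in shGFP, the differences lay between −717 and 3359 bp, with a median of 365 bp. The pair with the difference of 3359 bp was at Lmx1b, where a shDnmt3L peak of 5190 bp from 33398067 to 33403256 extended beyond a shGFP peak of 1831 bp on both sides, by 1706 and 1653 bp.

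The broad peaks had the 5 highest scores of the shDnmt3L peaks at these genes, but score did not follow width throughout. The 21.4 kb peak of Lmx1b, for example, scored below the narrower broad peaks of Lhx5 and Lhx1. The 5 broad peaks stood 4th, 21st, 37th, 53rd and 54th by width in the shDnmt3L list, and all had scores above 427.8, its 95th percentile. Among the 244 broad peaks of that list, the Lmx1b peak of 35.9 kb was tied for second by score. The Lhx5, Lhx1, second Lmx1b and Lhx2 peaks followed at 39, 42, 74 and 119. The median score percentile of all member peaks was 64.4 in shDnmt3L and 44.1 in shGFP, each within its own list. Above the median of its list were 26 of 41 shDnmt3L peaks and 18 of 40 shGFP peaks. Because the lists differ in length and their read depth is unknown, these ranks are not a measure of change.

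**Figure D4:**
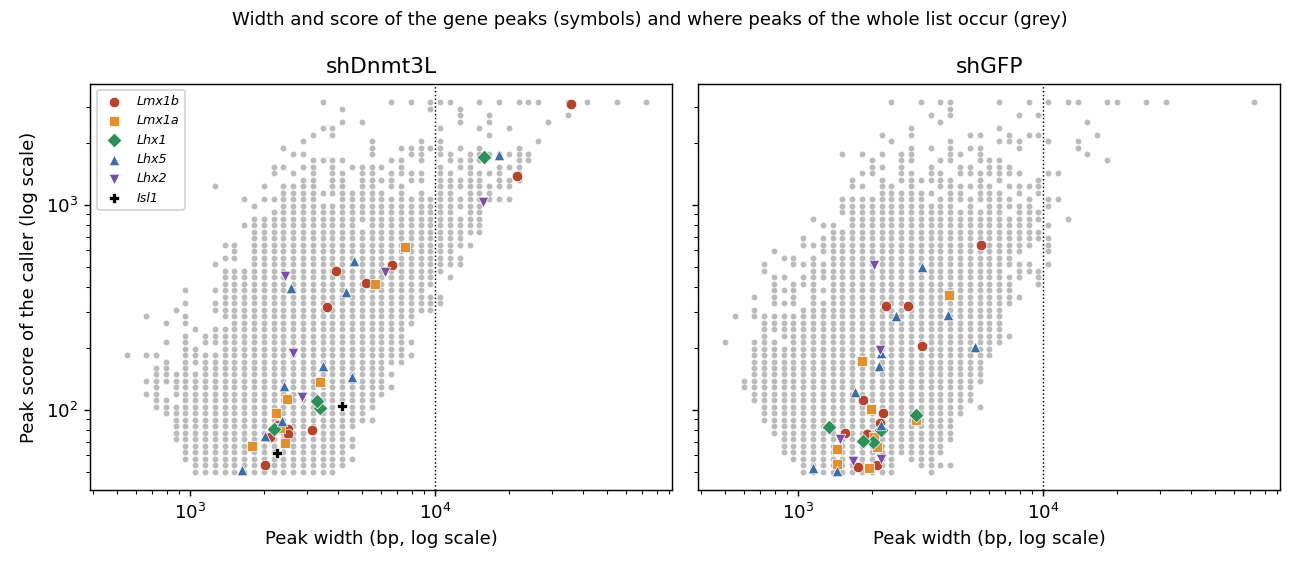
Peak score of the authors' caller against peak width in bp, both on log scales, for shDnmt3L (left) and shGFP (right), with the member peaks as symbols by gene, the occupied range of the whole list in grey and a dotted line at 10 kb. Past the line lie 5 shDnmt3L members and 0 shGFP members, and the highest-scoring shGFP member is the 5545 bp peak of Lmx1b with a score of 635.06.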

How the data were processed

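Each library was deposited as 1 list of peaks with a position and a score. The score is the value of the authors' peak caller, deposited with no unit stated. Its lowest values, 50 in shDnmt3L and 50.01 in shGFP, and the peak names are those of MACS. Per the submitters' processing notes, MACS 1.4.1, Bowtie 0.12.7, CASAVA 1.8 and the build mm9 were used; their roles are not stated. Input control and filters were not given in the sources used here. Because the read depth is also unknown, it cannot be told how far it set how many peaks were called and how wide they are.

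Coordinates are on mm9 with the first base counted as 1. None were converted, and the RefSeq tables of GRCm38.p6 gave promoter sequences, gene lengths and neighbours only. Peaks were shared from an overlap of 1 bp. Score and width percentiles are mid-ranks within 1 list. Where a peak crossed a window edge, it was clipped there, and no peak crossed the edge of a gene interval. Windows of 130 kb were laid from the first base of each chromosome. No p-value was computed, since each group held 1 library. The peaks named are, per gene and list, the widest, the highest-scoring, each of 10 kb or more and the strongest without a partner, with the peaks that touch them, and some further peaks chosen after their values were seen. The genes, intervals and lists were chosen with earlier results of these data known. Python 3.11.15, numpy 2.4.6, pandas 2.3.3, scipy 1.17.1 and matplotlib 3.10.9 were used, and the code was tested on simulated data. Other LIM homeobox genes were not analysed here. Alternatives were scores of at least 100 only, the shGFP list cut by score to the length of the shDnmt3L list, merging over gaps of up to 500 bp, other interval sizes and overlap rules, windows of 260 kb and, added later, sums without broad peaks, without the stretches under them or without Lmx1b.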

Additional observations from a re-analysis of the deposited data

How the results depend on the processing

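The covered length summed over the 6 genes was greater in shDnmt3L under every alternative computed, with a log2 ratio of 1.28 as reported. The genes were chosen on this measure, and some alternatives could not have lowered the ratio. Cutting only the shGFP list can only raise it (1.51). Counting peaks by their midpoint left it unchanged, since no peak crossed an interval edge. The log2 ratio was 1.98 when only scores of at least 100 were kept, 1.97 with intervals shortened by 25% on both sides and 0.36 without peaks of 10 kb or more. It was 0.51 with the stretches under broad shDnmt3L peaks left out of both lists. At Lhx1 the log2 ratio was −0.22 without broad peaks, a setting that keeps the shGFP peak under the broad one, and 0.06 with that stretch left out of both lists. At scores of at least 100, shGFP had 48.9 kb and 17 peaks, shDnmt3L had 26 peaks, and 94.1% of the shGFP peaks had a partner. Intervals extended by 50 kb held 69 peaks in each library and 157 kb in shGFP, and shortened ones held 23 shDnmt3L and 16 shGFP peaks, with 40.7 kb in shGFP. Without broad peaks shDnmt3L covered 119 kb, and without Lmx1b 135 kb. When 50% of each peak had to overlap, 60% of shGFP peaks had a partner. The share of windows with at least 2 times the covered length in shDnmt3L was 13.1% at the higher score and 13.3% with lists of equal length, against 7.67%. The interval sizes, the sums without Lmx1b and the removal of broad peaks change these values by construction. A score limit likewise can only lower peak counts and covered lengths, and a stricter overlap rule can only lower the share with a partner. Cutting only the shGFP list can only raise the share of windows with more in shDnmt3L. For the others the cause was not tested. The rest of the sums, shares and widths over the 6 genes stayed within 1.5 times or within their counting interval. At Lhx1 no shGFP peak reached a score of 100, so no ratio was available there. No paired analysis was possible because there was 1 library per group. The unknown read depth limits what the absence of a shGFP peak can show.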
